A study of Mus musculus with 4 samples.

Results

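Nicotinic acetylcholine receptors are ligand-gated cation channels, each assembled from a ring of subunits. The 9 subunit genes expressed by neurons in the rodent brain (Chrna2, Chrna3, Chrna4, Chrna5, Chrna6, Chrna7, Chrnb2, Chrnb3 and Chrnb4) were followed here in RNA from ribosomes of midbrain dopamine neurons and in RNA from the whole midbrain. They were chosen by name, as every probe set whose only gene symbol in the annotation of the Affymetrix mouse array is one of the 9, which gave 19 of the 45037 probe sets and 9 of the 18193 genes tested. In each group 2 arrays were available, TRAP replicates 2 and 4 and input replicates 1 and 2, each from a pool of 5 adult mice of both sexes aged 6 to 12 weeks. All mice carried the Slc6a3 JD1640 TRAP transgene, a single integrated line in which a bacterial artificial chromosome with the dopamine transporter gene Slc6a3 drives the GFP-tagged ribosomal protein eGFP/RPL10A. The line was started on FVB and crossed to C57BL6/J, so FVB alleles may remain near the transgene. In TRAP (translating ribosome affinity purification) the samples held RNA that came down with tagged ribosomes, and the input samples, labelled unbound (total) RNA, stood for the RNA of the dissected midbrain. The labels do not say which TRAP and input sample came from the same pool.

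Receptors that contain alpha and beta subunits bind acetylcholine and nicotine where an alpha subunit meets its neighbour. Chrna2, Chrna3, Chrna4 and Chrna6 encode agonist-binding alpha subunits, Chrnb2 and Chrnb4 the beta subunits that complete these sites, and Chrna5 and Chrnb3 accessory subunits that join such receptors and change their properties. Chrna7 encodes a subunit that can form a receptor on its own. In the midbrain, nicotinic receptors on dopamine neurons are the targets through which nicotine drives dopamine release, and receptors that contain the alpha6 subunit are known for their restriction to catecholamine neurons and few other cells.

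Levels are given in arbitrary expression units, 2 raised to the deposited log2 value. Background was set at 50 units, and a probe set is called above background where both arrays of TRAP or both arrays of input reached it. Between 35.2% and 35.8% of probe sets reached this level on an array. TRAP was compared with input by limma over all 45037 probe sets, p-values were adjusted by Benjamini and Hochberg's method (threshold 0.05), and a fold against a group below 50 units on both arrays is a lower bound computed against 50 units. Labels were checked against dopamine neuron markers. All 9 of the 9 markers measured were higher in TRAP, among them Th, the enzyme that sets the rate of dopamine synthesis, at 16613 and 20947 units in TRAP and 326 and 386 in input, and Slc6a3 at 37882 and 41149 units in TRAP and 4856 and 5824 in input. RNA quality controls moved with the groups. For Gapdh, the 3′ control probe set exceeded the 5′ one by 4.96 and 3.52 log2 units in TRAP and by 6.81 and 6.39 in input, and its part in the results was not tested. In RNA of a mixed tissue, fewer cells of a type and less RNA per cell cannot be told apart.

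Of the 9 subunit genes, each read from its brightest probe set, 5 were called higher in TRAP and 1 lower, beside 19.8% of all genes called higher and 19.0% called lower. The median log2 fold change of the 9 genes was 3.55, and that of all 18193 genes was 0.01. Not all of these calls rest on a measurable level. Chrna2 and Chrnb4 lay under 50 units on all 4 arrays, and Chrnb3 reached it on 1 array only. The other 6 genes (Chrna3, Chrna4, Chrna5, Chrna6, Chrna7 and Chrnb2) were above background, and of these Chrna4, Chrna5 and Chrna6 rose while 0 fell, beside 18.7% called higher and 6.87% called lower of the 10014 genes above background. Chrna3 and Chrna5 passed the filter through TRAP alone, so a higher level in TRAP was built into their selection. Once values under 50 units were raised to 50, the 9 genes had a median of 1.48 and that of all genes was 0.00. Of all genes, 7743 lay under 50 units on all 4 arrays, where this setting fixes the log2 fold change at 0. Over the 17073 probe sets above background the median was 0.44 on the deposited values and 0.40 with values raised to 50.

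Over all 19 probe sets of the family, 10 were called higher and 1 lower, beside 19.0% and 26.1% of all probe sets. Their median log2 fold change was 1.48 on the deposited values and 0.10 with values under 50 units raised to 50. Of the 19, 8 lay under 50 units on all 4 arrays. In 10 of the 19, both input arrays held exactly the same value, in 5 both TRAP arrays did, and in 4 this was so in both groups. Those 4 leave limma no spread to measure, so their p-values are not informative, and 3 of the 11 calls are among them. Of the 19 probe sets, 8 were above background, of which 5 were called higher and 0 lower, beside 18.8% and 9.13% of the 17073 probe sets above background. In all 8 of these both TRAP arrays lay above both input arrays, against 51.5% of the 17073. The Chrna3 and Chrna5 probe sets among them passed the filter through TRAP alone. For those, TRAP above input was fixed in advance, and their calls share this limit. The order was free only for the probe sets of Chrna4, Chrna6, Chrna7 and Chrnb2, and TRAP was higher in each.

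**Figure D1:**
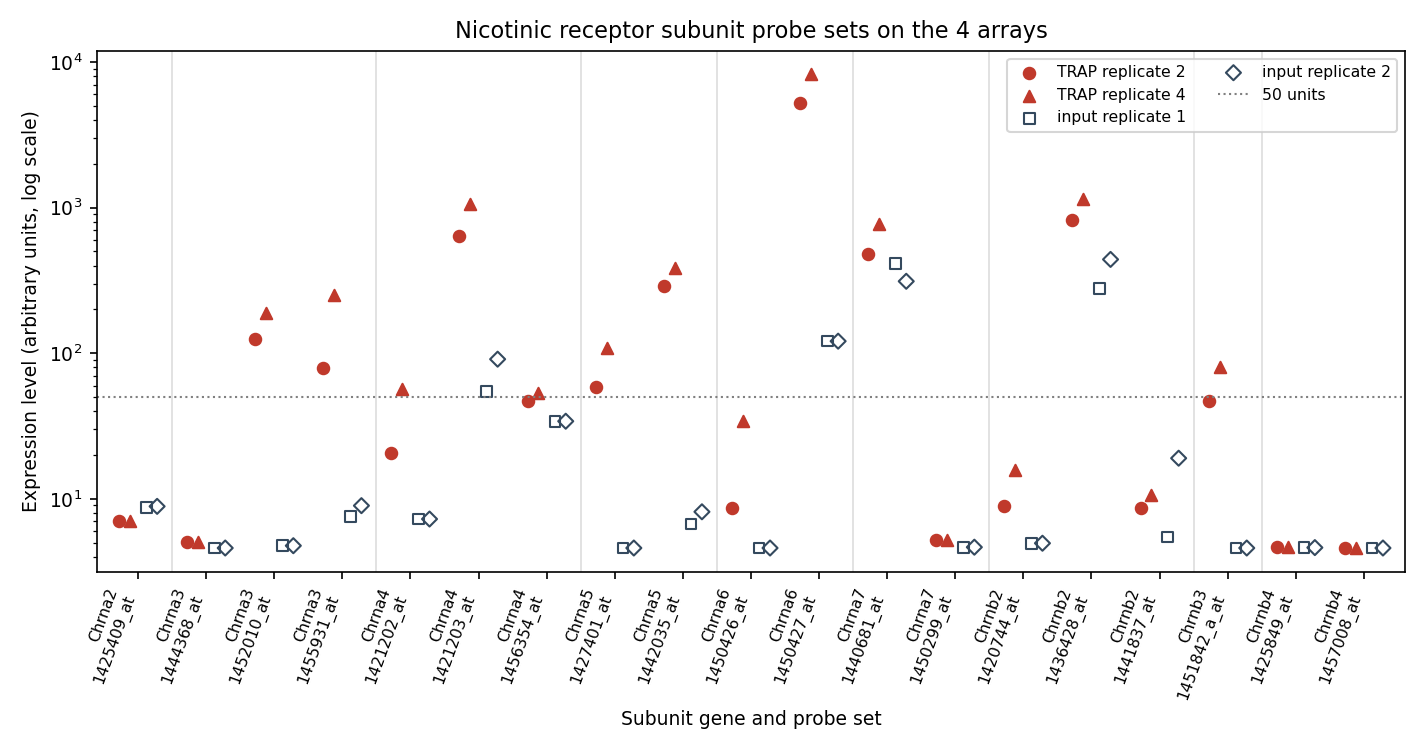
Expression level in arbitrary units (log axis) of the 19 probe sets of the 9 subunit genes. Filled red symbols are the 2 TRAP arrays, open symbols the 2 input arrays and the dotted line 50 units. The Chrna6 probe set 1450427_at stands at 5233 and 8226 units in TRAP and at 121 units on both input arrays, while both Chrnb4 probe sets lie between 4.58 and 4.65 units on all 4 arrays.

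Chrna6 had the largest change of the subunit genes whose input arrays all reached 50 units. Its probe set 1450427_at read 5233 units on TRAP replicate 2 and 8226 units on replicate 4, against 121 units on each input array. The 2 groups were far apart, and the mean was 6729 ± 2116 units (SD, n = 2) in TRAP and 121 units, with no spread, in input. This is a 54.1-fold rise, which is 5.76 on the log2 scale (standard error, SE, 0.30, limma adjusted p = 0.00515). The 2 input values were identical, as they were in 331 of the 15373 probe sets that reached 50 units on both of these arrays, so the error comes from the TRAP pair. Without input replicate 1 or input replicate 2 the adjusted p from limma was 0.0588 or 0.0597, with the fold change unaltered. A further Chrna6 probe set, 1450426_at, was dim, at 8.64 and 34.3 units in TRAP and 4.59 units on each input array. It did not pass (log2 fold change 1.91, SE 0.92, limma adjusted p = 0.204).

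Chrnb3, which encodes the accessory subunit beta3 that joins alpha6 receptors of dopamine neurons, had 1 probe set. It read 47.0 units on TRAP replicate 2 and 79.8 units on replicate 4, against 4.59 units on each input array. Only 1 of the 4 arrays reached 50 units, so no fold is given. The call passed over all probe sets (log2 fold change 3.74, SE 0.35, limma adjusted p = 0.0156) and was lost without input replicate 1 (0.107) or input replicate 2 (0.109). With levels under 50 units set to 50, the log2 fold change was 0.34.

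Chrna4 encodes the alpha4 subunit of the high-affinity nicotine receptor of the brain. Probe set 1421203_at measured it at 639 and 1066 units in TRAP and at 54.8 and 91.0 units in input. All 4 arrays were above background and the groups did not overlap. The mean was 853 ± 302 units in TRAP and 72.9 ± 25.6 in input (SD, n = 2 each), an 11.7-fold rise (log2 fold change 3.55, SE 0.48, limma adjusted p = 0.0302). This call was lost when any 1 of the 4 arrays was left out, with an adjusted p between 0.101 (without input replicate 2) and 0.130 (without TRAP replicate 4) from limma and log2 fold changes between 3.18 and 3.92. With an average over the 3 Chrna4 probe sets the log2 fold change was 2.11 and the call was lost (limma adjusted p = 0.0542). The other Chrna4 probe sets were dim. Probe set 1421202_at was at 20.7 and 57.1 units in TRAP and 7.26 units on each input array, and 1456354_at at 47.1 and 52.9 units in TRAP and 34.1 units on each input array. Values were higher in TRAP on both. The log2 fold change was 2.24 for 1421202_at (limma adjusted p = 0.0999) and 0.55 for 1456354_at, which passed (limma adjusted p = 0.0323) but was not above background.

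Chrnb2 encodes beta2, the partner of alpha4 and alpha6 in the main receptors of the brain. On probe set 1436428_at its level was 829 and 1153 units in TRAP and 278 and 441 units in input. Both TRAP arrays were above both input arrays. The mean was 991 ± 229 units in TRAP and 360 ± 115 in input (SD, n = 2 each), 2.79-fold, and the difference did not pass the threshold (log2 fold change 1.48, SE 0.38, limma adjusted p = 0.0852). It passed in a fit of the probe sets above background only (limma adjusted p = 0.0416). It did not pass after quantile normalization (log2 fold change 1.07, limma adjusted p = 0.160). With an average over the Chrnb2 probe sets it did not pass either (log2 fold change 0.89, limma adjusted p = 0.247). The other Chrnb2 probe sets were below background, at 8.90 and 15.8 units in TRAP and 4.95 units on each input array for 1420744_at, and at 8.65 and 10.7 units in TRAP and 5.45 and 19.0 units in input for 1441837_at, the only one of the 19 probe sets in which the groups overlapped.

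Chrna7, whose product forms receptors on its own, differed least of the 6 subunit genes above background. Probe set 1440681_at was at 483 and 777 units in TRAP and at 414 and 312 units in input. The TRAP arrays were higher, but TRAP replicate 2 stood just above input replicate 1. The mean was 630 ± 208 units in TRAP and 363 ± 72.1 in input (SD, n = 2 each), 1.71-fold, and the difference did not pass (log2 fold change 0.77, SE 0.37, limma adjusted p = 0.202). Centring the arrays on probe sets at 50 units or more, which moved the median log2 fold change of all probe sets by -0.41, left 0.36 for this probe set. The second Chrna7 probe set, 1450299_at, lay at 5.23 units on both TRAP arrays and 4.65 on both input arrays.

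**Figure D2:**
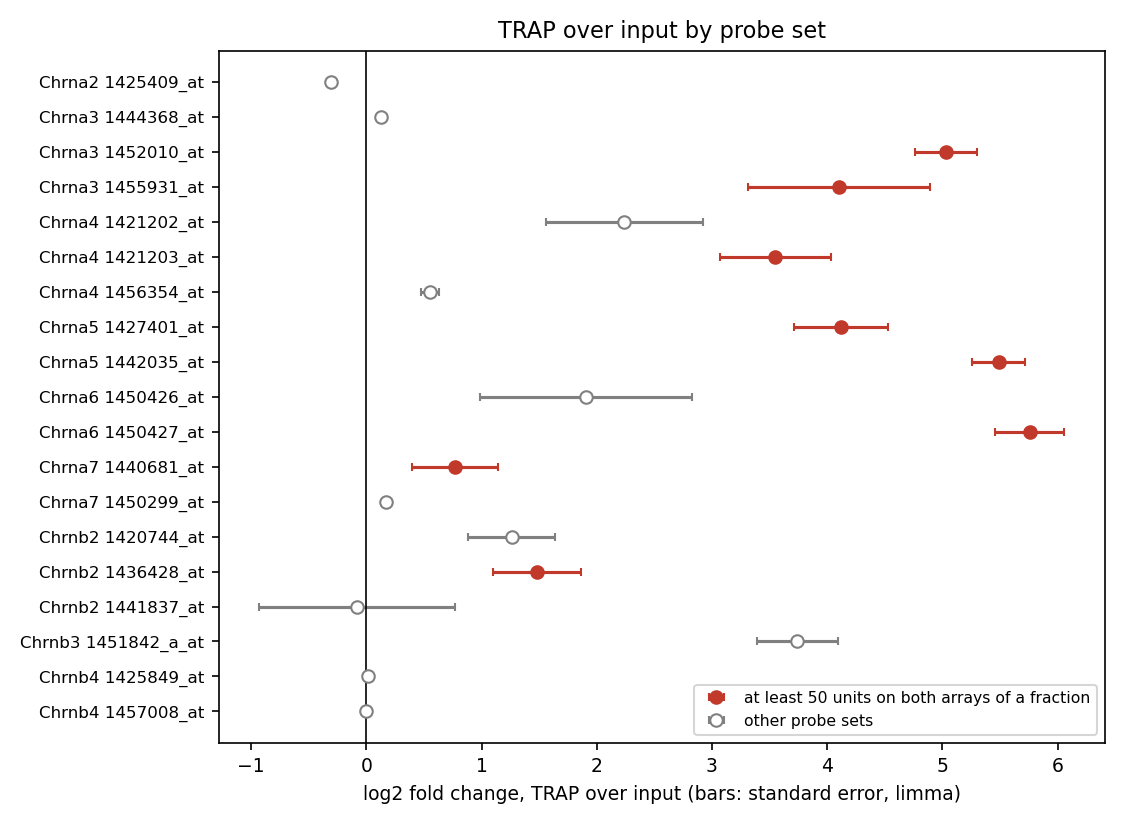
Log2 fold change (TRAP over input) of the 19 probe sets, with limma's standard error as bars. Filled points are the 8 probe sets above background, open points the others, and those of Chrna3 and Chrna5 rest on input values under 50 units. Of the 3 genes whose input arrays all reached 50 units beside Chrna6 (5.76), Chrna4 is at 3.55, Chrnb2 at 1.48 and Chrna7 at 0.77.

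Chrna5, Chrna3 and Chrnb4 follow each other on mouse chromosome 9 in the RefSeq annotation of GRCm38.p6. Chrna5 and Chrna3 were above background in TRAP only, and Chrnb4 was at the floor of the arrays in both groups. Whether these genes share a pattern cannot be told from such values. Chrna5, the accessory alpha5 subunit, was at 289 and 383 units in TRAP on probe set 1442035_at and at 6.72 and 8.14 units in input. Both input arrays were below background, so the rise was at least 6.65-fold (log2 fold change on the deposited values 5.49, SE 0.23, limma adjusted p = 0.00325). With 1 array left out the log2 fold change was between 5.29 and 5.69. Without a TRAP array the only spread left is between 2 input values below background, so such a fit cannot test the call. With levels under 50 units set to 50 the rise just missed the threshold (log2 fold change 2.73, limma adjusted p = 0.0536). The second Chrna5 probe set, 1427401_at, was at 58.7 and 108 units in TRAP and 4.59 units on each input array, so that it rose 1.60-fold or more (limma adjusted p = 0.0172), and it was no longer called without input replicate 1 (0.113) or 2 (0.115).

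Chrna3, which encodes the alpha3 subunit best known from autonomic ganglia and the medial habenula, was seen by 3 probe sets. Probe set 1455931_at, the brightest, was at 78.8 and 252 units in TRAP and at 7.56 and 8.97 units in input. The TRAP arrays were apart by a log2 difference of 1.68, the widest within TRAP of the 8 probe sets above background. The level in TRAP was at least 2.82-fold higher, but the difference did not pass (limma adjusted p = 0.0549). Without TRAP replicate 2 the log2 fold change was 4.94, with the only spread left between the 2 input values below background. Probe set 1452010_at was at 126 and 190 units in TRAP and 4.76 units on each input array, and it rose at least 3.10-fold (log2 fold change 5.03, SE 0.27, limma adjusted p = 0.00553). That call was lost without input replicate 1 (0.0611) or input replicate 2 (0.0620). The third, 1444368_at, was at 5.03 units on both TRAP arrays and 4.59 on both input arrays. Chrnb4, which encodes the beta4 subunit that pairs with alpha3, was at the floor of the arrays on both of its probe sets, at 4.65 units on both TRAP arrays and 4.62 on both input arrays for 1425849_at and at 4.58 and 4.59 units for 1457008_at. These values set no level for Chrnb4.

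The start regions of these neighbouring genes are shown because 2 of the genes, Chrna5 and Chrna3, were above background in TRAP only and Chrnb4 in neither group. The brightest Chrna3 probe set was not called, and these values do not show that the genes differ. Chrna4 is added as a gene of another chromosome that rose. Each window is RefSeq's of GRCm38.p6, 250 bases before to 50 after an annotated start, written 5′ to 3′ on the gene's strand, and capitals mark GGGCGG or its reverse complement CCGCCC, the GC box bound by Sp factors.
Chrna5 first start, chr9:54980630-54980929, plus strand: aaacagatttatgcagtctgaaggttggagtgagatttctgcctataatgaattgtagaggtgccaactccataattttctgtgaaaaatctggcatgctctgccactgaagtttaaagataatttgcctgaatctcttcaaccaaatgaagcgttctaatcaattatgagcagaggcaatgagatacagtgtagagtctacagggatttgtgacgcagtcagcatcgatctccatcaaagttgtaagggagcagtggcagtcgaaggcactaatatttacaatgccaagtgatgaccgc
Chrna5 second start, chr9:54981238-54981537, plus strand: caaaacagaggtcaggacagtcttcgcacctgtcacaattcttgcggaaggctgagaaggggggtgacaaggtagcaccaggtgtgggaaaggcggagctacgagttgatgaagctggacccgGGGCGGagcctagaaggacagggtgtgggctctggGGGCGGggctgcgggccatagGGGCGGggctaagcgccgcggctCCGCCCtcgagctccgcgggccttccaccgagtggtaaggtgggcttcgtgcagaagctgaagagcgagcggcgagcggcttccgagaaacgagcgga
Chrna3, chr9:55026513-55026812, minus strand: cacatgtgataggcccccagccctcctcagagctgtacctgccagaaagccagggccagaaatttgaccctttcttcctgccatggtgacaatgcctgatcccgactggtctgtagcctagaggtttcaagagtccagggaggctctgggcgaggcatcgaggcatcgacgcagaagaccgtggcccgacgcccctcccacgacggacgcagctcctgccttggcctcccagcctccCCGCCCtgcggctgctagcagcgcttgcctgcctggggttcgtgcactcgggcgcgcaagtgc
Chrnb4, chr9:55048495-55048794, minus strand: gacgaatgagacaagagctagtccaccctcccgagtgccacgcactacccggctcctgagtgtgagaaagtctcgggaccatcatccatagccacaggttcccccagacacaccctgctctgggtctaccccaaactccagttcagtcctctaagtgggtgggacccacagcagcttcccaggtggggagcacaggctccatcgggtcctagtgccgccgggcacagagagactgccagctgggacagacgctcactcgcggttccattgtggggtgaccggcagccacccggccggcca
Chrna4, chr2:181039128-181039427, minus strand: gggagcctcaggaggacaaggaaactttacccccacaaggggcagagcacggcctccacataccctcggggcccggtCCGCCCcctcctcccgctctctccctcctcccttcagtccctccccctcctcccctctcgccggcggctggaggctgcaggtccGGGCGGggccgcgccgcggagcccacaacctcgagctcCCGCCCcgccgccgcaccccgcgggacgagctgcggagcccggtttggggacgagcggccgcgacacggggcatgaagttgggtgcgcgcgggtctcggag
The GC box occurred 4 times at the second Chrna5 start, 3 times at Chrna4, 1 time at Chrna3, and 0 times at the first Chrna5 start and at Chrnb4. Chrna2, Chrna6 and Chrnb3 had no window and were not searched for any motif. Of the 6 subunit genes with a window, Chrna7 and Chrnb2 had 1 match to the GC box each. Among all 32851 windows 35.7% held at least 1 match. The NBRE, AAAGGTCA, the site of NR4A nuclear receptors such as Nr4a2, was found in 0 of the 7 windows of the family and in 1.51% of all. The bicoid-type site of Pitx factors, TAATCC, was also found in 0 of 7 and in 7.06% of all, and the TATA box, TATAAA, in 0 of 7 and in 13.6%. The E-box CACGTG was found 1 time, at Chrna7, and in 7.15% of all. Both strands were searched, and these motifs do not overlap one another. A match describes the letters of the window only. The G and C content was 41.3% at the first Chrna5 start and between 59.0% and 74.3% in the other 6 windows of the family, beside a median of 52.7% over all windows.

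Chrnb3 and Chrna6 are also direct neighbours in this annotation. The 3 genes on either side of each subunit gene, other than the subunits themselves, were 36 genes, of which 20 were measured and 11 were above background. Of these 11, 3 rose and 1 fell, beside 18.7% and 6.87% of all genes above background. The 11 genes had a median log2 fold change of 0.80, beside 0.44 over the 17073 probe sets above background. Their range was between -2.38 and 2.13. The highest was Psma4, a proteasome subunit next to Chrna5, at 2228 and 2534 units in TRAP and 411 and 715 units in input (log2 fold change 2.13, SE 0.38, limma adjusted p = 0.0485). Tex24, next to Chrnb3 on its outer side, was at 4.58 units on both TRAP arrays and 4.59 on both input arrays.

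Chrna2, an alpha subunit of restricted expression in the rodent brain, was at 7.07 units on both TRAP arrays and at 8.73 and 8.87 units in input. It was called lower (log2 fold change -0.31, limma adjusted p = 0.00213), but all 4 values lay far under 50 units, and its sign turned after quantile normalization of the arrays (0.16). Together with Chrnb4 it is thus not described as changed.

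The TRAP arrays differed from each other in the same direction for each subunit above background. All 8 probe sets above background had a higher level on TRAP replicate 4 than on replicate 2, by a median of 0.67 log2 units, against a median of 0.01 over the 17073 probe sets above background. Over the brightest probe sets of the 6 genes above background, the difference was also 0.67, and the lowest was Chrna5 at 0.41. Dopamine neuron markers were higher on replicate 4 for 8 of 9 genes, by a median of 0.26, and their summed level was 138436 units on replicate 2 and 172112 on replicate 4, against 18374 and 14302 on the input arrays. RNA quality controls differed between the same 2 arrays, with a 3′ over 5′ excess of 4.96 and 3.52 log2 units for Gapdh and of 6.45 and 4.82 for Actb on TRAP replicates 2 and 4. All 3 GABAergic neuron markers were lower on replicate 4, with sums of 5960 and 2839 units on TRAP replicates 2 and 4 and of 12865 and 5968 units on input replicates 1 and 2. The 5 oligodendrocyte markers measured were also all lower on replicate 4, with sums of 68067 and 31529 units in TRAP and 71982 and 86421 units in input. Of the 6 astrocyte markers 1 was higher on replicate 4, Slc1a2 at 1832 units on replicate 2 and 2089 on replicate 4. The part of these other cells and of RNA quality in the subunit levels was not tested. These are differences between single arrays and carry no test.

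**Figure D3:**
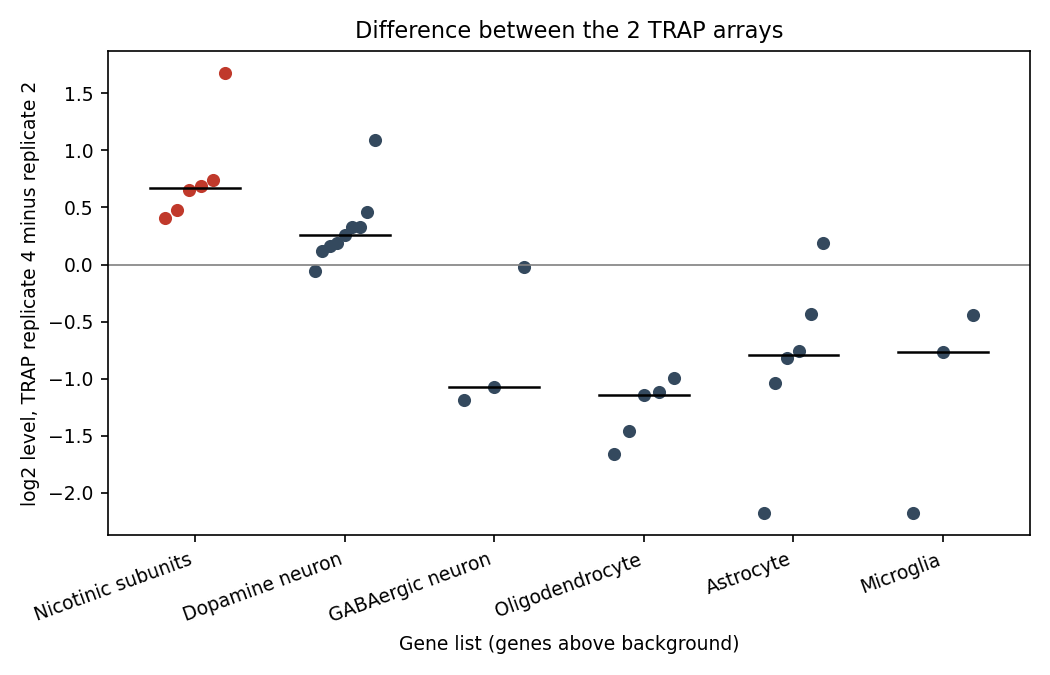
Log2 level on TRAP replicate 4 minus that on TRAP replicate 2 for the genes above background of the nicotinic subunits and of 5 marker lists, 1 point per gene (brightest probe set), with the median as a line. The 6 subunit genes lie between 0.41 and 1.68, while the 5 oligodendrocyte markers lie below 0.

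Markers of cholinergic neurons, which the midbrain holds in the oculomotor nucleus among others, were at the floor of the arrays. Chat, Slc18a3, Slc5a7 and Phox2a, 4 of the 5 listed, were under 50 units on all 4 arrays, with a sum of 18.8 units on each TRAP array and 18.9 on each input array. As for Chrnb4, these values set no level, so they do not show whether cholinergic neurons were in the dissected tissue. Of the serotonergic markers, Tph2 was at 294 units on both TRAP arrays and at 604 and 69.3 units in input, so that these groups overlapped.

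The genes whose 4 values ran most like those of a subunit were found by the Euclidean distance between log2 values centred on each gene's mean, over 10014 genes above background and 4 arrays. With so few arrays the measure mostly sorts genes by fold change and by the difference within each pair, and it is given as a description. For Chrna3, Chrna5, Pitx3, Ntn1, Tmem43, Cnnm4, Pcsk1 and Fam171a2 it rests on input values under 50 units, whose order is not reliable. Nearest to Chrna6 were Ntn1, the guidance protein netrin 1 (distance 0.14 log2 units), Th (0.29) and Anxa1, an annexin (0.31). Nearest to Chrna5 were Th (0.23), Pitx3, a transcription factor of dopamine neurons (0.27), and Chrna6 (0.37). For Chrna4 they were Tmem43 (0.21), Etv5 (0.23) and Lmx1b (0.35), the last a transcription factor of the dopamine lineage, and for Chrna3 they were Cnnm4 (0.31), Pcsk1 (0.37) and Fam171a2 (0.49). Chrnb2 ran with Lpin2 (0.06), Cybc1 (0.08) and Fbxl15 (0.10), and Chrna7 with Heatr5b (0.05), Mnat1 (0.05) and Stam (0.09).

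The nicotinic subunits of muscle and of the inner ear were low in both groups. All 6 measured (Chrna1, Chrna9, Chrnb1, Chrnd, Chrne and Chrng) lay under 50 units on all 4 arrays, Chrna1 at 4.58 units in TRAP and 6.13 in input and Chrnb1 at 4.60 and 5.35. Their median log2 fold change was -0.05. Chrna10 was not read here.

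Genes that act on nicotinic receptor assembly, transport or gating were all above background. Of 11 measured, 1 rose, 1 fell and 9 did not pass, beside 18.7% called higher and 6.87% called lower of all genes above background. Counts of 1 among 11 genes do not show a difference from these shares. The median log2 fold change of the 11 was 0.89, beside 0.44 over the 17073 probe sets above background. Lypd6, a membrane-anchored protein of the Ly6 family, was at 129 and 75.8 units in TRAP and at 534 and 421 units in input, so that input was higher on both arrays. It fell by 2.26 on the log2 scale (SE 0.39, limma adjusted p = 0.0454), and the call was lost without any 1 of the 4 arrays, with an adjusted p from 0.0876 (without TRAP replicate 2) to 0.188 (without input replicate 1). Ly6e, of the same family, was at 1253 and 1616 units in TRAP and at 380 and 348 units in input, with no overlap. It rose 3.91-fold (log2 fold change 1.97, SE 0.18, limma adjusted p = 0.0147) and was no longer called without input replicate 1 (0.0948) or 2 (0.103). With an average over all Ly6e probe sets the log2 fold change was 0.30 and the call was lost (limma adjusted p = 0.118). Its probe set is of a type (_s_at) that can share probes with other transcripts. Vsnl1, a calcium sensor that binds alpha4, was at 22611 and 25328 units in TRAP and at 16291 and 10290 in input, and did not pass (log2 fold change 0.89, limma adjusted p = 0.130). Ywhah, a 14-3-3 protein, was at 17563 and 20063 units in TRAP and at 17599 and 10657 in input, with overlap.

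Lypd1 and Ric3 were added after their values were seen. They had the largest positive log2 fold changes of the same 11 genes, so they do not stand for that list, whose median was 0.89. Lypd1, a Ly6-family protein known to modulate receptors with alpha4 and beta2 in mice, was at 1209 and 1842 units in TRAP and at 232 and 406 units in input, which did not pass (log2 fold change 2.28, SE 0.47, limma adjusted p = 0.0617). Ric3, a chaperone of alpha7 receptors, was at 124 and 182 units in TRAP and at 51.5 and 14.5 units in input. It did not pass either (log2 fold change 2.46, limma adjusted p = 0.132). With an average over all Ric3 probe sets the log2 fold change was 0.84 (limma adjusted p = 0.424).

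Among 5 genes of acetylcholine synthesis, transport and breakdown only Ache, the enzyme that splits acetylcholine, was above background. It was at 790 and 1298 units in TRAP and at 165 and 250 units in input, with both TRAP arrays higher, and just missed the threshold (log2 fold change 2.32, SE 0.44, limma adjusted p = 0.0528). Bche, the related cholinesterase, was at 6.28 and 8.77 units in TRAP and at 58.7 and 42.4 units in input, with 1 of the 4 arrays at 50 units or more (limma adjusted p = 0.0219, lost without any 1 array, 0.0863 to 0.123). Of the glycine and serotonin receptor genes of the same superfamily, 4 of 7 were above background (Glra1, Glra2, Glra3 and Glrb) and of these 0 passed. Glrb, the beta subunit of glycine receptors, was at 8769 and 13191 units in TRAP and at 9434 and 4633 in input, and Glra2 at 849 and 913 units in TRAP and at 1097 and 664 in input, so that both overlapped between the groups.

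**Figure D4:**
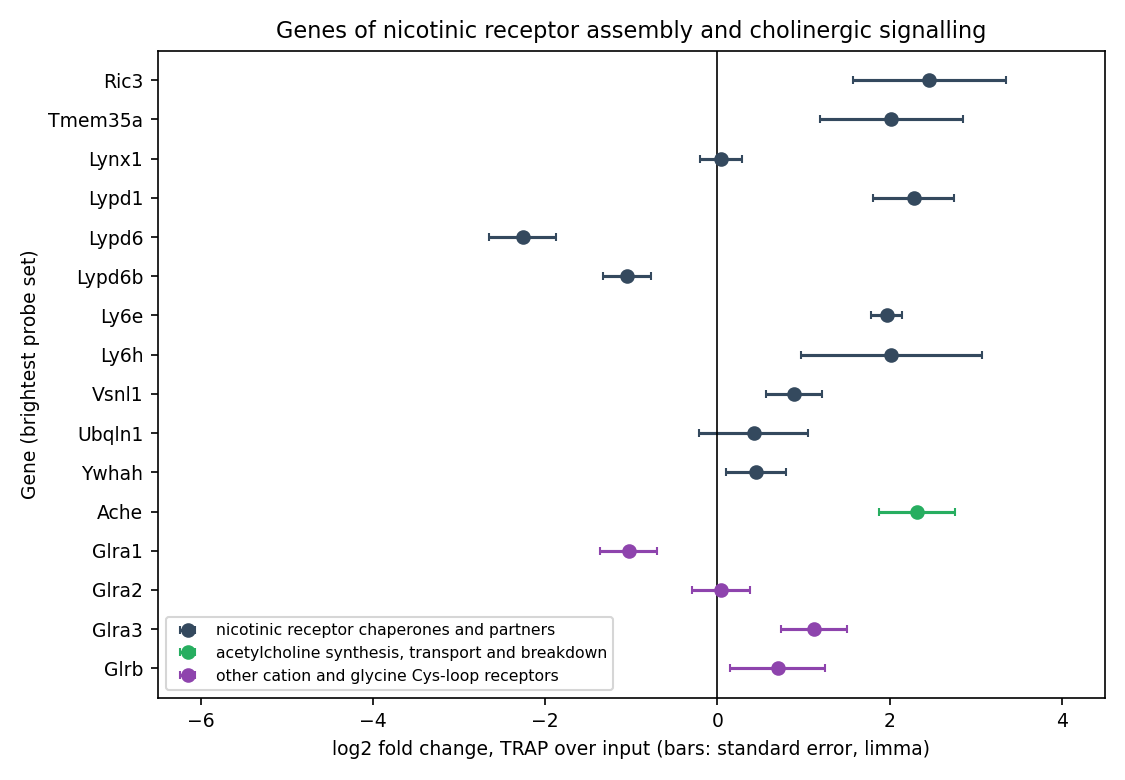
Log2 fold change (TRAP over input) with limma's standard error of the 16 genes above background of the receptor assembly, acetylcholine and Cys-loop receptor lists. Lypd6 at -2.26 is the lowest and Ric3 at 2.46 the highest, and only Lypd6 and Ly6e passed the threshold.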

How the data were processed

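RNA from TRAP and input fractions of mouse midbrain was hybridised to Affymetrix mouse expression arrays, 1 per sample, after two-cycle amplification. The deposited values are log2 expression values that the authors obtained in R with GCRMA (version not given in the sources used here). No further normalization was applied. The 64 Affymetrix control probe sets among 45101 were not tested. The platform's annotation gave 34945 of the 45037 tested probe sets 1 gene symbol, 932 several and 9160 none, and each gene was read from its brightest probe set, by the mean of all arrays.

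TRAP and input were compared with limma 3.58.1 in R 4.3.3 (two-sided, Benjamini-Hochberg over 45037 probe sets), with 2 residual and 0.317 prior degrees of freedom. p-values measure the spread between pools where the 2 arrays of a group differ, and the number of arrays limits their precision. In 10 of the 19 probe sets of the family both input arrays held the same value. There the error holds no spread between input pools, and in 4 of them no spread in either group. The 50-unit background was set for this work. Genes outside the family were named by rule: up to 4 per list, those called with the largest change first, then the brightest. Lypd1 and Ric3 were named in addition, after their values were seen. Members, lists, motifs and tests were chosen with earlier results of these data known. Proteins were not used here.

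Alternatives were quantile normalization, centring on probe sets at 50 units or more, a fit of probe sets above background, values under 50 raised to 50, an intensity trend, controls kept, each array left out, an average over each gene's probe sets, a threshold of 0.01 and a background of 100 units.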

Additional observations from a re-analysis of the deposited data

How the results depend on the processing

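No paired analysis was possible because the TRAP and input samples share only replicate number 2. On the deposited values 3 subunit genes above background rose. That number was 5 in a fit of probe sets above background only, where Chrna3 and Chrnb2 were added. It was 1 with values under 50 units raised to 50 (Chrna6), a fit in which most variances are 0 and p-values are unreliable. No count is given with 1 array left out, since such a fit leaves 1 array in a group. For Chrna6 the 2 input values are identical, so without a TRAP array no spread is left to measure. Calls lost in such fits are given with each gene. With 1 array left out the log2 fold change ran from 3.18 to 3.92 for Chrna4. It ran from 5.29 to 5.69 for Chrna5 and from 5.43 to 6.08 for Chrna6. The number of subunit genes above background that rose was 2 to 4 under the other alternatives, and 0 fell under any alternative. The 5 probe sets called higher were 3 at an adjusted p under 0.01 and 1 with values raised to 50.

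Of related genes above background, 1 rose. This count was 3 after centring, in the fit above background and with an intensity trend. It was 2 with an average over each gene's probe sets (Lypd1 and Vsnl1, without Ly6e), and 0 with values raised to 50 and at an adjusted p under 0.01. The 1 that fell became 3 after centring and 0 with values raised to 50 and at 0.01.

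Signs turned only for probe sets with small changes or below background among those named. After centring the log2 fold change was -0.28 for Chrna3 1444368_at, -0.24 for Chrna7 1450299_at, -0.40 for Chrnb4 1425849_at and -0.36 for Glra2. After quantile normalization it was 0.16 for Chrna2, 0.32 for Chrnb2 1441837_at, 0.01 for Chrnb4 1457008_at and -0.41 for Glra2. Without 1 array, Chrnb2 1441837_at ran from -0.98 to 0.82 (0.07 without TRAP replicate 2, 0.82 without input replicate 2) and Glra2 from -0.32 to 0.41 (-0.01 without TRAP replicate 4, -0.32 without input replicate 2). The causes were not tested. Values near the floor of the arrays, where many are identical, limit what can be said of Chrna2, Chrnb3 and Chrnb4.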
